A study of Mus musculus with 3 samples.

Results

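The vascular smooth muscle contractile genes described here are Acta2, Tagln, Myh11, Cnn1, Mylk, Smtn, Lmod1, Synpo2 and Myocd. They were taken by gene symbol, from a choice made with earlier results of these data known, and all 9 were found among the 15503 genes that the 3 deposited tables cover together. RNA of left ventricles from C57BL6J mice was pooled from 3 animals per genotype and sequenced on an Illumina instrument, giving 1 library per genotype and no replicate. The Egln1Tie2Cre pool carries Cre under the Tie2 promoter to delete Egln1, which encodes the HIF prolyl hydroxylase PHD2. The Egln1/Hif2aTie2Cre pool is labelled as deleted for Hif2a (gene symbol Epas1) as well, with the same Cre. The control pool is labelled Egln1 floxed, and the series' design text calls it wild type. No ages are stated in the labels. The Tie2 promoter drives expression in endothelium and in blood-forming cells, so smooth muscle is not the cell type in which the deletion is chiefly expected. The study's title concerns cardiac hypertrophy and fibrosis after loss of endothelial PHD2. The values below give whole-ventricle transcript levels of the 9 genes in single pools, not levels within the cells of the vessel wall.

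Vascular smooth muscle contracts when calcium-bound calmodulin activates myosin light chain kinase, whose phosphorylation of the regulatory light chain lets smooth muscle myosin pull on alpha smooth muscle actin. Calponin, transgelin, smoothelin, leiomodin and synaptopodin-2 bind, assemble or bundle the actin filaments. Myocardin is a coactivator that acts with serum response factor (SRF) at CArG boxes in the regulatory DNA of many of these genes. In the ventricle these cells surround coronary arteries and arterioles. Several of the genes are also transcribed in other cells, since stressed cardiomyocytes and activated fibroblasts can express Acta2 and Tagln, and myocardin and synaptopodin-2 are expressed in cardiomyocytes.

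RefSeq (GRCm38.p6) gave promoter windows, from 250 bases before to 50 bases after the annotated start, for 6 of the 9 genes (Acta2, Cnn1, Mylk, Smtn, Lmod1 and Synpo2). The windows of Acta2 and Lmod1 are printed because they were the only ones of the 6 with a near match to the CArG box, the site bound by SRF. Capitals mark each 10-base stretch that departs from the CArG box at 1 position. The box reads the same way on both strands, so the search covers both, and the marked stretches do not overlap each other. Acta2 lies on the minus strand at chr19:34255324-34255623, and Lmod1 on the plus strand at chr1:135324563-135324862.
Acta2: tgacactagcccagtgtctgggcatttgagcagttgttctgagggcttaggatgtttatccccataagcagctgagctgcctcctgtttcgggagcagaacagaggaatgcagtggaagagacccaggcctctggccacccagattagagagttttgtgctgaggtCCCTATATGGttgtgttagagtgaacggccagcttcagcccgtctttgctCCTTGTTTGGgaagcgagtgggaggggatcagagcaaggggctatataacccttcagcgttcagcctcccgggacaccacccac
Lmod1: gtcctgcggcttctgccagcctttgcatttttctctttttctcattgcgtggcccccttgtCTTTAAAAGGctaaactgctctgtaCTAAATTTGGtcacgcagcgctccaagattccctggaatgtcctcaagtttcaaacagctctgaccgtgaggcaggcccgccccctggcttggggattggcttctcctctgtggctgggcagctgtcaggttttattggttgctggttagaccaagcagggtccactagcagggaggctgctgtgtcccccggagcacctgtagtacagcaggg

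In the Acta2 window the 2 stretches began 84 and 34 bases before the annotated start, and in the Lmod1 window 189 and 164 bases before it. An exact CArG box was in 0 of the 6 windows and in 1.63% of all 32851 windows. A stretch with at most 1 mismatch was in 2 of the 6 and in 21.1% of all windows, and 3.70% of all windows held at least 2 of them. A match here is a description of letters, not a site of binding, and the absence of one concerns these windows only.

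The same gene order was found in all 3 libraries when the genes were ranked by FPKM, a unit that scales fragments by transcript length and library total and so allows levels of different genes to be compared. From highest to lowest it was Smtn, Acta2, Synpo2, Tagln, Myh11, Myocd, Mylk, Lmod1 and Cnn1. In the Egln1 floxed pool Smtn had a higher FPKM than 95.5% of the 15301 genes with a value, and Cnn1 a higher one than 26.2%. The levels thus ran over a wide range within a single library, with Lmod1 and Cnn1 near 1 FPKM. Myh11, Cnn1 and Lmod1, the markers most restricted to smooth muscle, had a value above 0 in every pool. With no second library of any genotype, no spread is available to say whether neighbours in this order differ. The closest neighbours were Synpo2 and Tagln in the library labelled Egln1/Hif2aTie2Cre, whose FPKM stood at a ratio of 1.02, and Smtn and Acta2 there, at 1.03.

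**Figure D1:**
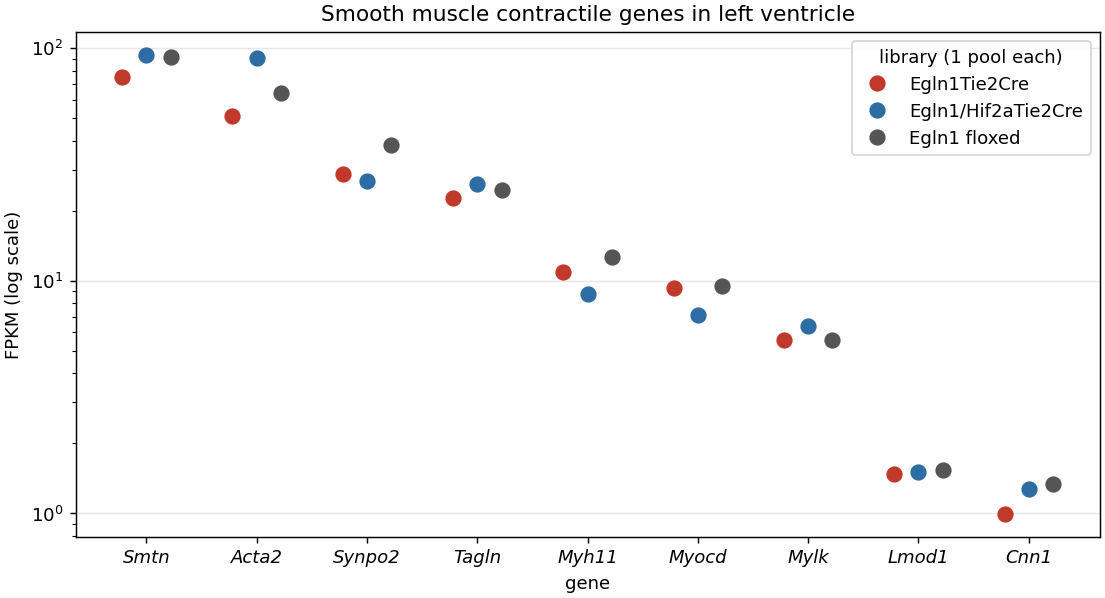
FPKM on a log scale of the 9 contractile genes, 1 point per pooled library, with genes ordered by their level in the Egln1 floxed pool. The order is the same in every pool, and the pools lie furthest apart at Acta2, with 51.4 FPKM in Egln1Tie2Cre, 90.6 in the library labelled Egln1/Hif2aTie2Cre and 64.1 in Egln1 floxed.

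The targeted genes were read as a check of the labels. Egln1 had 95.7 FPKM in Egln1Tie2Cre, 129 in the library labelled Egln1/Hif2aTie2Cre and 129.5 in Egln1 floxed, and Epas1 had 65.0, 54.5 and 77.4 in the same order. The Egln1 level of the library labelled Egln1/Hif2aTie2Cre does not show the deletion its label gives, so each direction drawn from that library rests on its label. Whole-ventricle levels are a weak check, because other cells keep the genes.

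Ratios between pools are given as log2 of FPKM + 1, which understates differences of low genes, and as plain ratios of FPKM. A gene was called higher or lower at 1.5-fold or more on the FPKM + 1 scale, among genes with a mean of at least 1 FPKM in the pair. All 9 genes passed that filter in all 3 comparisons. These calls describe single pools and carry no test. In bulk tissue, fewer cells of a type and less RNA per cell cannot be told apart, and this holds for every value below.

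In the Egln1Tie2Cre pool the contractile genes were slightly lower than in the Egln1 floxed pool or close to it. None reached 1.5-fold: 0 of 9 were called higher, against 9.46% of all 11978 genes kept, and 0 of 9 were called lower, against 8.73%. Of the 9 genes 8 had a lower level, against 48.1% of all genes kept. The median log2 ratio was -0.20 for the 9 genes and 0.02 for all genes kept. Mylk, the single gene above 0, was at 0.01, and at -0.01 when ratios were centred on all genes.

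In the library labelled Egln1/Hif2aTie2Cre the genes lay on both sides of the Egln1 floxed pool, again without a call, and Tagln, Cnn1, Smtn and Lmod1 were within 0.1 log2 units of it. Of the 9, 0 were at least 1.5-fold higher, against 4.42% of all 11888 genes kept, and 0 were at least 1.5-fold lower, against 3.28%. In this comparison 4 genes lay above 0 and 5 below, with a median log2 ratio of -0.02, beside 0.00 for all genes kept. Acta2 was highest at 0.49, and Synpo2 (-0.51), Myh11 (-0.48) and Myocd (-0.36) were lowest. The middle 50% of the members were spread over 0.46 log2 units, and the same width for all genes kept was 0.40. The median absolute log2 ratio was 0.18 for the members and 0.20 for all genes kept.

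Between the Cre pools, Acta2 was the 1 gene called. It was higher in the library labelled Egln1/Hif2aTie2Cre than in Egln1Tie2Cre, so 1 of 9 were called higher, against 9.67% of all 11999 genes kept, and 0 of 9 lower, against 9.64%. That share of the members is close to the background. The median log2 ratio was 0.17 over the 9 genes and -0.02 over all genes kept, with 6 genes above 0. These 3 comparisons share libraries, so their ratios are not independent of each other.

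**Figure D2:**
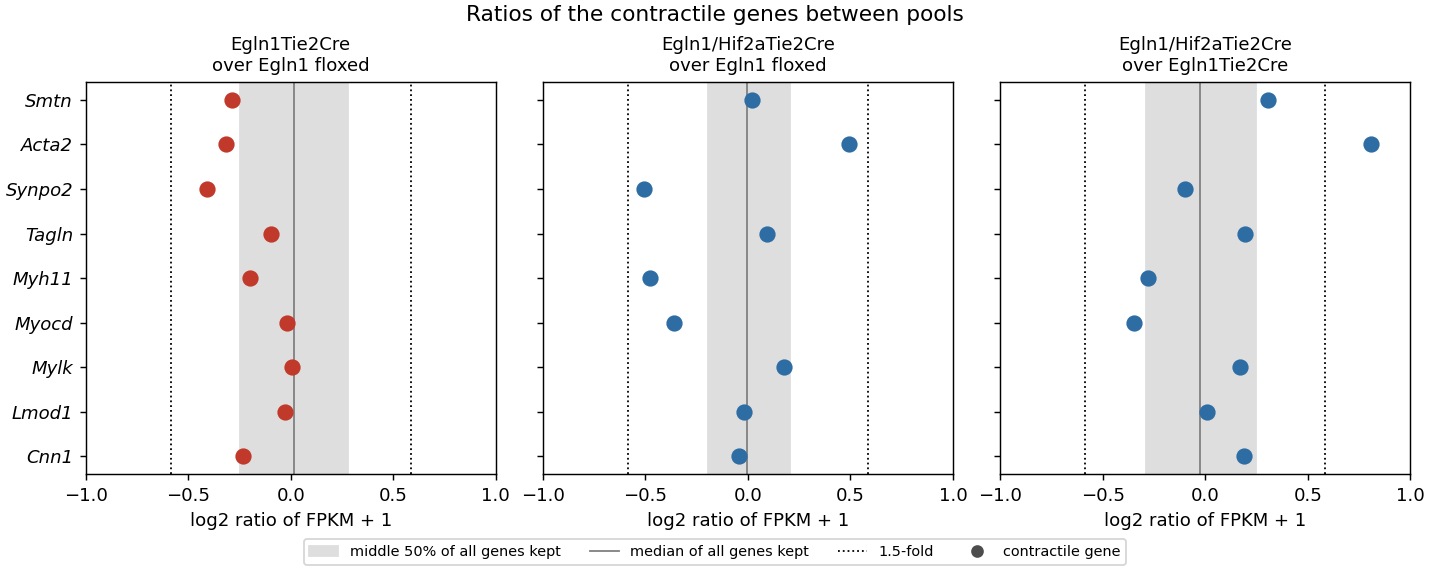
Log2 ratio of FPKM + 1 of each contractile gene in the 3 comparisons, 1 point per gene, with the middle 50% of all genes kept in grey and 1.5-fold marked by dotted lines. Acta2 at 0.81 in the library labelled Egln1/Hif2aTie2Cre over Egln1Tie2Cre is the single point beyond the dotted lines.

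Acta2, which encodes alpha smooth muscle actin, the main thin filament actin of contractile smooth muscle, had the widest range of the 9 genes over the 3 pools. Synpo2 lay further than Acta2 from the Egln1 floxed pool in both Cre pools. Acta2 lies on the minus strand of GRCm38 chromosome 19, from 34241090 to 34255590. Its level was 51.4 FPKM in Egln1Tie2Cre, 90.6 FPKM in the library labelled Egln1/Hif2aTie2Cre and 64.1 FPKM in Egln1 floxed. The floxed pool was thus in the middle, with Egln1Tie2Cre 1.25-fold lower and the library labelled Egln1/Hif2aTie2Cre 1.41-fold higher. The last was 1.76-fold above Egln1Tie2Cre (log2 ratio 0.81), and 11.5% of all genes kept were at least as far from 0 in that comparison. Other actin genes are similar in sequence, but 1.496% of the 31-base stretches of the longest Acta2 transcript occurred in another gene's longest transcript.

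Myh11, the smooth muscle myosin heavy chain that forms the thick filament and a marker largely restricted to smooth muscle, did not follow Acta2. It lies on chromosome 16, minus strand, from 14194535 to 14291372. Myh11 had 10.9 FPKM in Egln1Tie2Cre, 8.79 FPKM in the library labelled Egln1/Hif2aTie2Cre and 12.7 FPKM in Egln1 floxed. Both Cre pools were lower than the floxed pool, by 1.16-fold for Egln1Tie2Cre and 1.44-fold for the library labelled Egln1/Hif2aTie2Cre. The ratio of Acta2 to Myh11 FPKM within a library was 4.72 in Egln1Tie2Cre, 10.3 in the library labelled Egln1/Hif2aTie2Cre and 5.07 in Egln1 floxed. Whole-ventricle Acta2 and Myh11 transcripts therefore stood in a wider ratio in the library labelled Egln1/Hif2aTie2Cre than in the other pools. Which cells made them was not tested.

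Mylk encodes myosin light chain kinase and lies on chromosome 16, plus strand, from 34745210 to 35002420. It had 5.57 FPKM in Egln1Tie2Cre, 6.40 FPKM in the library labelled Egln1/Hif2aTie2Cre and 5.54 FPKM in Egln1 floxed. The library labelled Egln1/Hif2aTie2Cre was 1.15-fold above both others, which were nearly equal. The locus gives rise to long and short kinases and to telokin, and the gene-level value does not separate them.

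Tagln, which encodes transgelin (SM22 alpha), an actin-binding protein of smooth muscle, had 22.8 FPKM in Egln1Tie2Cre, 26.2 FPKM in the library labelled Egln1/Hif2aTie2Cre and 24.5 FPKM in Egln1 floxed. These values kept the order of Acta2 across the pools, but within a narrower range, with the largest ratio at 1.15-fold. The gene lies on chromosome 9, minus strand, from 45929619 to 45936058. Its value is uncertain where strand was not used in counting, because 62.4% of its exonic bases are also exons of the antisense gene Gm48529 and 5.43% of the coding gene Pcsk7.

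Cnn1, which encodes calponin 1, an actin-binding inhibitor of myosin ATPase activity and a late marker of contractile smooth muscle, was the lowest of the 9 genes. It had 0.997 FPKM in Egln1Tie2Cre, 1.27 FPKM in the library labelled Egln1/Hif2aTie2Cre and 1.34 FPKM in Egln1 floxed. Egln1Tie2Cre was 1.35-fold below Egln1 floxed by plain ratio, the largest such ratio of the 9 in that comparison, while on the FPKM + 1 scale its log2 ratio was -0.23. The depth behind a value near 1 FPKM is unknown. The gene lies on chromosome 9, plus strand, from 22099216 to 22109630.

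Lmod1, leiomodin 1, which nucleates actin filaments in smooth muscle, had 1.48 FPKM in Egln1Tie2Cre, 1.501 FPKM in the library labelled Egln1/Hif2aTie2Cre and 1.54 FPKM in Egln1 floxed. The 3 pools were closest together at this gene, within 1.04-fold. It lies on chromosome 1, plus strand, from 135324807 to 135368065. Its promoter window, like that of Acta2, held near matches to the CArG box, and a link of such matches to levels was not tested.

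Smtn, smoothelin, a cytoskeletal protein of contractile smooth muscle that associates with actin filaments, had 75.3 FPKM in Egln1Tie2Cre, 93.3 FPKM in the library labelled Egln1/Hif2aTie2Cre and 92.1 FPKM in Egln1 floxed. The library labelled Egln1/Hif2aTie2Cre and Egln1 floxed were within 1.01-fold, and Egln1Tie2Cre was 1.22-fold below Egln1 floxed. Smtn was the most abundant of the 9 per length in every pool, above Acta2. The gene lies on chromosome 11, minus strand, from 3517523 to 3540612, and 16.3% of its exonic bases overlap those of the opposite-strand transcript Gm11946.

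Synpo2, which encodes synaptopodin-2 (myopodin), an actin-bundling protein of smooth muscle and of striated muscle Z-discs, was lower in both Cre pools. It had 28.8 FPKM in Egln1Tie2Cre, 26.8 FPKM in the library labelled Egln1/Hif2aTie2Cre and 38.5 FPKM in Egln1 floxed. Egln1Tie2Cre was 1.34-fold and the library labelled Egln1/Hif2aTie2Cre 1.44-fold below Egln1 floxed, and the Cre pools were within 1.07-fold of each other. In these comparisons 31.8% and 11.4% of all genes kept were at least as far from 0. Synpo2 lies on chromosome 3, minus strand, from 123076519 to 123236149.

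Myocd, which encodes myocardin, had 9.36 FPKM in Egln1Tie2Cre, 7.16 FPKM in the library labelled Egln1/Hif2aTie2Cre and 9.48 FPKM in Egln1 floxed. Egln1Tie2Cre and Egln1 floxed were within 1.01-fold, and the library labelled Egln1/Hif2aTie2Cre was 1.33-fold below Egln1 floxed. Across the pools Myocd was lowest where Acta2, one of its known targets, was highest. The ratio of Acta2 to Myocd FPKM was 5.49 in Egln1Tie2Cre, 12.7 in the library labelled Egln1/Hif2aTie2Cre and 6.77 in Egln1 floxed. Myocd lies on chromosome 11, minus strand, from 65176561 to 65269989.

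In the authors' deposited table of each comparison the q-value of every one of these genes was 0.9996, in 27 entries of 27. Of all genes listed, 69 of 14827 had a q-value of 0.05 or below for Egln1Tie2Cre over Egln1 floxed. The number was 2 of 14843 for the library labelled Egln1/Hif2aTie2Cre over Egln1 floxed, and 85 of 14894 between the Cre pools. A q-value above 0.05 is therefore not particular to the contractile genes. Those q-values compare 2 libraries and not 2 genotypes.

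The summed FPKM of the 9 genes was 206 in Egln1Tie2Cre, 262 in the library labelled Egln1/Hif2aTie2Cre and 249.8 in Egln1 floxed. Smtn and Acta2 made up most of each sum. Acta2 contributed 24.9% in Egln1Tie2Cre, 34.6% in the library labelled Egln1/Hif2aTie2Cre and 25.7% in Egln1 floxed, and Synpo2 13.9%, 10.2% and 15.4% in that order. Without Acta2 the median log2 ratio of the other 8 was -0.15 for Egln1Tie2Cre over Egln1 floxed, -0.03 for the library labelled Egln1/Hif2aTie2Cre over Egln1 floxed and 0.09 for that library over Egln1Tie2Cre.

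**Figure D3:**
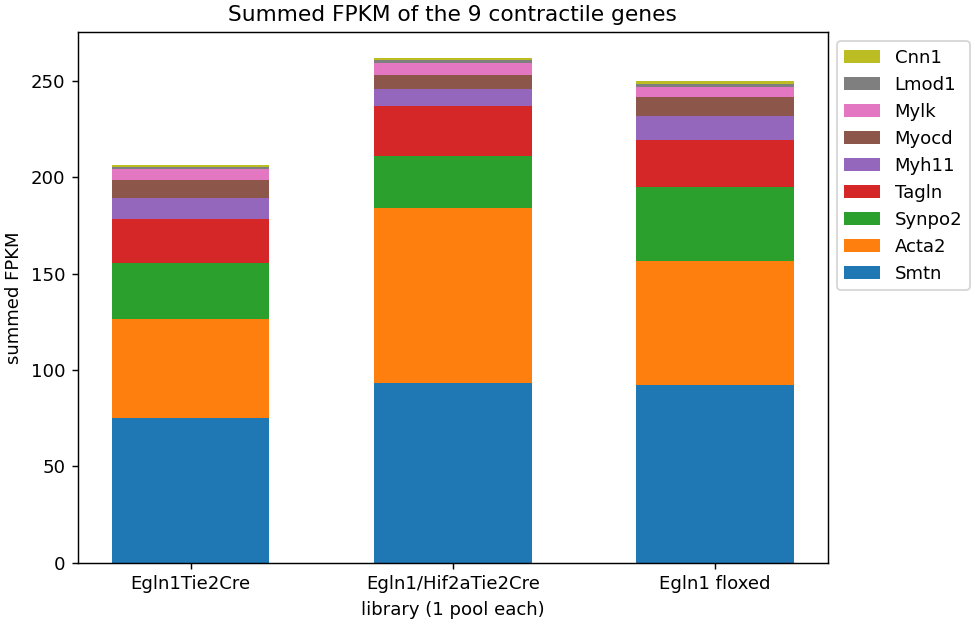
Summed FPKM of the 9 contractile genes in each pooled library, stacked by gene. The sum is 206 in Egln1Tie2Cre, 262 in the library labelled Egln1/Hif2aTie2Cre and 249.8 in Egln1 floxed, and the Acta2 segment differs most between pools.

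Close paralogues of the 9 genes, most of them cardiac or found in many cell types, included single genes with larger ratios than any of the 9. Of 19 kept, 1 was at least 1.5-fold higher and 3 lower in Egln1Tie2Cre than in Egln1 floxed, with a median log2 ratio of 0.02. Acta1, skeletal alpha actin, had 719.5 FPKM in Egln1Tie2Cre, 418 in the library labelled Egln1/Hif2aTie2Cre and 288 in Egln1 floxed. It was highest in the pool in which Acta2 was lowest. Both were higher in the library labelled Egln1/Hif2aTie2Cre than in Egln1 floxed, Acta1 by 1.45-fold and Acta2 by 1.41-fold. Mylk4, a kinase related to Mylk, had 18.0 FPKM in Egln1Tie2Cre, 35.4 in the library labelled Egln1/Hif2aTie2Cre and 68.8 in Egln1 floxed, whereas Mylk was nearly level. Lmod3, a leiomodin of striated muscle, had 35.3, 56.5 and 60.9 FPKM. Actg1, cytoplasmic gamma actin, had 26.0, 109 and 87.5 FPKM, but 57.1% of its 31-base stretches occur in other genes and its value is uncertain. In the library labelled Egln1/Hif2aTie2Cre 0 paralogues were called higher and 2 lower than in Egln1 floxed, namely Mylk4 and Smtnl2 (1 gene with a pseudocount of 5). Smtnl2, a smoothelin-like gene, had 13.0, 5.16 and 8.44 FPKM. Against Egln1Tie2Cre that library had 4 of 18 higher and 2 lower. Of the non-muscle or widely expressed relatives, Myh9, Myh10, Cnn2 and Tagln2 were under 1.5-fold in every comparison, unlike Actg1 and Actb. Actb, cytoplasmic beta actin, had 153 FPKM in Egln1Tie2Cre, 235 in the library labelled Egln1/Hif2aTie2Cre and 167 in Egln1 floxed. It was called higher in that library than in Egln1Tie2Cre, but 35.2% of its 31-base stretches occur in other genes and its value is uncertain.

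Other genes of the contractile apparatus, of which all 24 listed were kept, went both ways. In Egln1Tie2Cre 4 were at least 1.5-fold higher than in Egln1 floxed and 2 lower, or 1 lower at a pseudocount of 5. The median log2 ratio there was 0.19. Myl9, the regulatory light chain that Mylk phosphorylates in smooth muscle, was lower, at 21.2 FPKM in Egln1Tie2Cre, 33.5 in the library labelled Egln1/Hif2aTie2Cre and 34.2 in Egln1 floxed. Tpm2, beta tropomyosin, had 39.4, 25.6 and 20.2 FPKM in that order, and Actn1, an alpha actinin of adhesions, had 19.995, 9.93 and 12.3 FPKM. Vcl, vinculin, had 34.5, 11.7 and 20.7 FPKM, and Ilk, integrin-linked kinase, 93.0, 78.5 and 53.7 FPKM, both with exons or sequence shared with other genes. Myl6, the essential light chain, had 15.4, 287 and 174 FPKM, and 10.8% of its 31-base stretches occur in other genes. In the library labelled Egln1/Hif2aTie2Cre 3 were higher than in Egln1 floxed (Myl6, Tpm4 and Nexn) and 2 lower (Vcl and Palld), with a median of 0.00. Palld, the actin-crosslinking protein palladin, had 48.1 FPKM in Egln1Tie2Cre, 29.0 in the library labelled Egln1/Hif2aTie2Cre and 48.999 in Egln1 floxed. Between the Cre pools 3 were higher and 6 lower in the library labelled Egln1/Hif2aTie2Cre. Many of these genes, among them Tpm1 and Des, are abundant in cardiomyocytes.

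Genes that set the phosphorylation of the myosin light chain were mostly under 1.5-fold. Of 20 kept, 2 were higher and 1 lower in Egln1Tie2Cre than in Egln1 floxed, with a median log2 ratio of 0.04. Rgs2, which dampens signalling from contractile G protein coupled receptors, had 20.96 FPKM in Egln1Tie2Cre, 12.9 in the library labelled Egln1/Hif2aTie2Cre and 10.2 in Egln1 floxed. Prkg1, the cGMP-dependent kinase of relaxation, had 4.03, 2.002 and 2.22 FPKM. The lower gene, Ppp1r14b, had 13.2, 40.5 and 34.97 FPKM, and 39.5% of its 31-base stretches occur elsewhere. In the library labelled Egln1/Hif2aTie2Cre 0 were higher and 2 lower than in Egln1 floxed. Pde3a, a cyclic nucleotide phosphodiesterase of smooth and cardiac muscle, had 9.73 FPKM in Egln1Tie2Cre, 4.98 in the library labelled Egln1/Hif2aTie2Cre and 9.93 in Egln1 floxed, and Ppp1r12b, a targeting subunit of myosin phosphatase, had 36.5, 29.6 and 46.3 FPKM. Against Egln1Tie2Cre that library had 1 of 20 higher, beside 9.67% of all genes kept, and 5 lower, beside 9.64%. With a pseudocount of 5 in place of 1 none of these 5 calls and none of the 2 lower ones against Egln1 floxed was made, and 1 gene was called higher in Egln1Tie2Cre than in Egln1 floxed.

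Transcription factors and signals that act on the SRF and myocardin programme gave few calls. Of 19 kept, 1 was higher and 0 lower in Egln1Tie2Cre than in Egln1 floxed (median -0.13), and 1 was higher and 1 lower in the library labelled Egln1/Hif2aTie2Cre (median -0.11). Klf4, a factor that represses contractile genes in smooth muscle and is also expressed in endothelium, was the higher gene in both, at 18.6 FPKM in Egln1Tie2Cre, 21.5 in the library labelled Egln1/Hif2aTie2Cre and 9.78 in Egln1 floxed. Tead1, a factor that can activate smooth muscle promoters, had 21.7, 20.9 and 32.1 FPKM. Srf itself had 19.5, 20.8 and 21.4 FPKM, under 1.5-fold in each comparison. With a pseudocount of 0.1 these counts in Egln1Tie2Cre were 2 higher and 1 lower, and with a pseudocount of 5 the lower call in the library labelled Egln1/Hif2aTie2Cre was not made.

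Among ion channels and receptors of smooth muscle, of which 15 were kept, 0 were higher and 3 lower in Egln1Tie2Cre than in Egln1 floxed, with a median of 0.03. Adra1a and Adra1b, the alpha-1 adrenergic receptors, had 2.95 and 4.97 FPKM in Egln1Tie2Cre, 3.70 and 7.64 in the library labelled Egln1/Hif2aTie2Cre and 7.60 and 9.61 in Egln1 floxed, and both are also cardiomyocyte receptors. Tbxa2r, the thromboxane receptor, had 1.09, 2.64 and 2.46 FPKM. In the library labelled Egln1/Hif2aTie2Cre, Adra1a was the 1 gene of 16 kept that was called lower than in Egln1 floxed. Between the Cre pools 3 of 15 were higher and 2 lower in that library. With a pseudocount of 5, 1 gene was called lower in Egln1Tie2Cre and 0 in that library against Egln1 floxed, and 1 higher and 1 lower between the Cre pools.

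**Figure D4:**
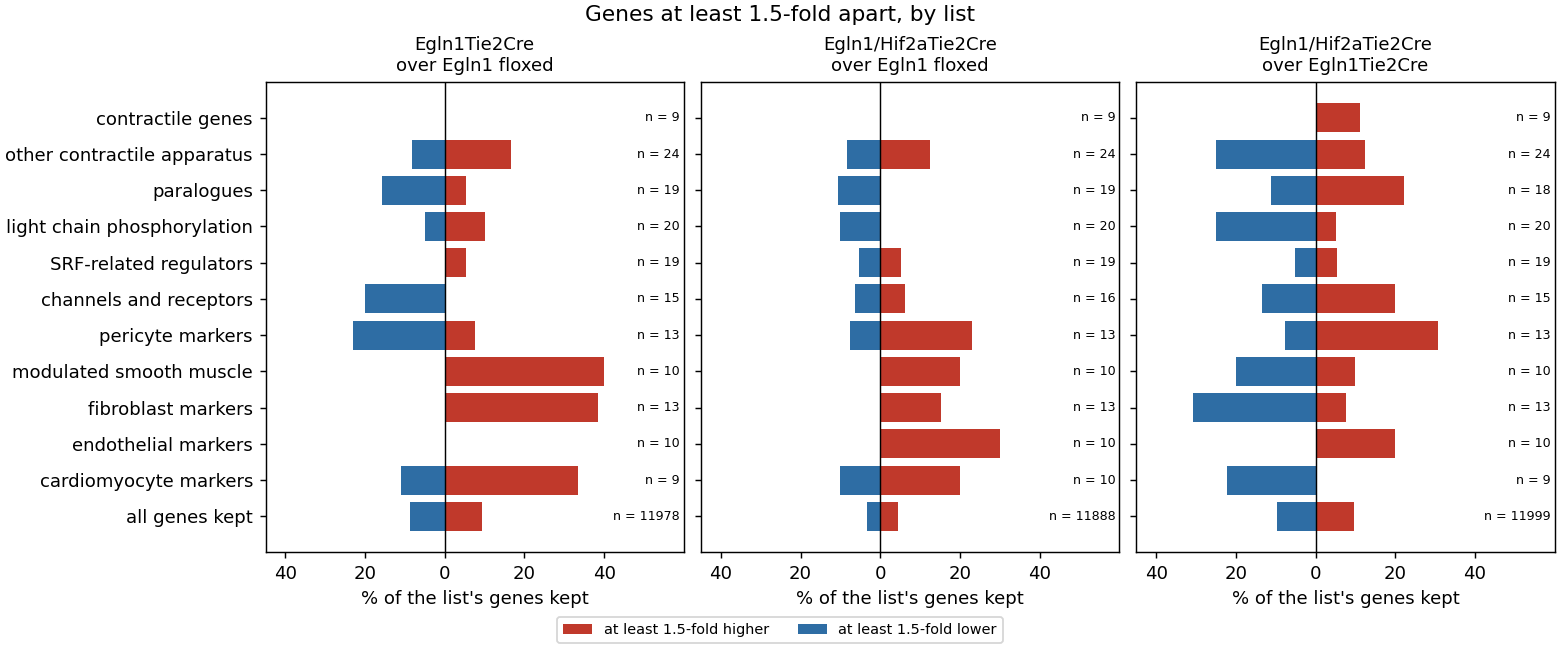
Share of each list's genes kept that were at least 1.5-fold higher (to the right) or lower (to the left) in the 3 comparisons, with the number kept at the right. The contractile genes show 0 calls against Egln1 floxed in both Cre pools, and all genes kept show 9.46% and 8.73% in Egln1Tie2Cre and 4.42% and 3.28% in the library labelled Egln1/Hif2aTie2Cre.

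Markers of neighbouring cell types give the setting of these values. All 13 pericyte markers were kept, and their summed FPKM was 345.4 in Egln1Tie2Cre, 387 in the library labelled Egln1/Hif2aTie2Cre and 345.5 in Egln1 floxed. In Egln1Tie2Cre 1 of the 13 (Mcam) was at least 1.5-fold higher than in Egln1 floxed, beside 9.46% of all genes kept. There 3 (Kcnj8, Rgs4 and Vtn) were lower, beside 8.73%. The library labelled Egln1/Hif2aTie2Cre had 3 higher (Higd1b, Ndufa4l2 and Vtn), beside 4.42%, and 1 lower (Abcc9), beside 3.28%. With a pseudocount of 5 none of these lower calls was made in either pool. Between the Cre pools 4 (Kcnj8, Higd1b, Rgs4 and Vtn) were higher in the library labelled Egln1/Hif2aTie2Cre, beside 9.67% of all genes kept. There 1 (Mcam) was lower, beside 9.64%, a call not made with a pseudocount of 5. Rgs5, the most abundant of the 13, differed by under 1.5-fold, at 147 FPKM in Egln1Tie2Cre, 160.1 in the library labelled Egln1/Hif2aTie2Cre and 136 in Egln1 floxed. The sum of 10 endothelial markers was 449.9, 509 and 399 FPKM in that order. Of these 10, 0 were called in Egln1Tie2Cre against Egln1 floxed, and 3 were higher and 0 lower in the library labelled Egln1/Hif2aTie2Cre, namely Emcn, Cldn5 and Egfl7. The sum of 14 fibroblast and myofibroblast markers was 481, 513 and 424.5 FPKM, a sum in which Dcn was the largest term in each pool. Of 13 kept, 5 were higher in Egln1Tie2Cre than in Egln1 floxed, beside 9.46% of all genes kept, and 0 lower, beside 8.73%, with a median log2 ratio of 0.09. They were Thbs4 (7.42-fold), Comp (5.59-fold), Cilp (3.52-fold), Postn (2.13-fold) and Meox1 (1.83-fold by plain ratio of FPKM). Meox1 and Cilp were also higher in the library labelled Egln1/Hif2aTie2Cre than in Egln1 floxed, where 0 were lower. That count of 2 was 1 with a pseudocount of 5 or at a mean of at least 5 FPKM. The sum of 9 cardiomyocyte markers was 44369, 39127 and 33769.7 FPKM, in which Nppa and Nppb are themselves stress genes. Myl2 was the largest term in each pool, at 19883, 15211 and 10992 FPKM. Of these 9, 3 (Myl2, Nppa and Nppb) were at least 1.5-fold higher in Egln1Tie2Cre than in Egln1 floxed. Myh6 went the other way and was called lower, at 3645, 4600 and 6691 FPKM. In that comparison 6 of the 9 lay above 0 and 3 below, with a median log2 ratio of 0.37. Myh6 and Nppa share sequence with other genes, and their values are uncertain. The tenth on that list, Ryr2, is outside the sum because the tables used here give it no value in Egln1Tie2Cre. It had 85.8 FPKM in the library labelled Egln1/Hif2aTie2Cre and 145 in Egln1 floxed. Of 7 epicardial and mesothelial markers 4 are in no table, and the sum of the other 3 was 23.98, 2.31 and 2.59 FPKM. Krt19 had 13.7, 0.169 and 0.218 FPKM and Wt1 10.2, 1.60 and 2.25 FPKM. Upk3b was lowest in Egln1Tie2Cre, at 0.0429, 0.538 and 0.122 FPKM. The part of these differences in the contractile gene values was not tested.

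The 5 genes whose ratios over Egln1 floxed were nearest to the medians of the contractile genes, by the larger of the differences in 2 ratios over 3 libraries, were Rtn3, Vps9d1, Naa30, Thumpd1 and Cxx1a. Rtn3, for example, had 33.2 FPKM in Egln1Tie2Cre, 38.1 in the library labelled Egln1/Hif2aTie2Cre and 38.6 in Egln1 floxed. Of 7356 coding genes compared, 320 lay within 0.1 log2 units of those medians, so the pattern is a common one.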

How the data were processed

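Messenger RNA was measured in 3 libraries, each from pooled left ventricular RNA of 3 mice. Per the submitters' processing notes, the authors used TopHat2 and Cuffdiff, with no version, genome build or annotation given in the sources used here. The deposited tables, per the file headers, hold FPKM for a pair of libraries, a linear fold ratio and a q-value per gene, all made by the authors. Each FPKM column was assigned by the sample titles in its table's name. Values recur between tables, for 14489 of 14489 genes in Egln1Tie2Cre, 14367 of 14367 in Egln1/Hif2aTie2Cre and 14368 of 14369 in Egln1 floxed, and for all 9 members in each. FPKM keeps no read counts and Cuffdiff values need not step by whole reads, so depth is unknown and no interval is given.

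Log2 ratios of FPKM + 1 were computed for genes with a mean of at least 1 FPKM in the pair (Python 3.11.15, pandas 2.3.3, numpy 2.4.6, matplotlib 3.10.9) and tested on simulated data. With 1 library per genotype no p-value was computed. Genes were matched to GENCODE M21 (GRCm38) by gene ID for position, exon overlap and shared 31-base stretches of each gene's longest transcript. Sharing or overlap of at least 20% was read as uncertain. The members and lists were chosen with earlier results of these data known. The rule for named genes takes all members, genes of the pathway lists at least 1.5-fold apart in any comparison (in place of the 3 most abundant), such genes and the 3 most abundant of each marker list, and the 5 genes nearest in pattern. It gave 85 genes, not counting the last 5, and those not printed are given as counts or not reported here.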

Additional observations from a re-analysis of the deposited data

How the results depend on the processing

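The counts of contractile genes at least 1.5-fold apart and their medians kept their size under a pseudocount of 0.1, no filter, a mean of at least 5 FPKM and both centrings, except that at a mean of at least 5 FPKM, which leaves out Cnn1 and Lmod1, the median for the library labelled Egln1/Hif2aTie2Cre over Egln1 floxed was 0.02 in place of -0.02. All 27 levels were the same in the other table. With a pseudocount of 5 the median log2 ratio was -0.0847 for Egln1Tie2Cre over Egln1 floxed and 0.0652 for the library labelled Egln1/Hif2aTie2Cre over Egln1Tie2Cre, since a larger pseudocount shrinks ratios. The 1 gene called between the Cre pools, Acta2, was not called at 2-fold (0 genes), and 0 genes were called without it. Without Tagln and Smtn, whose exons overlap other genes, an alternative chosen after seeing the data, the median of the comparison between the Cre pools was 0.00986, and the cause was not tested. Allowing 1 mismatch in the CArG box gave 2 genes in place of 0. Of 156 alternative log2 ratios of single contractile genes, 7 moved by 0.1 or more, all at another pseudocount and at most by 0.17, and 2 changed sign, both of Mylk near 0. Of the 99 counts and medians of the pathway and marker lists, 21 moved (a count by over 1.5 times, a median by 0.1 or more) with a pseudocount of 5, 13 with a pseudocount of 0.1, 4 with no filter, 1 with ratios centred on all genes and 4 centred on coding genes with little shared sequence. At a mean of at least 5 FPKM 10 of 98 moved, and at 2-fold 37 of the 66 counts. With 1 library per genotype no replicate could be left out. No paired analysis was possible because no genotype has a second library. Depth is unknown, which limits Cnn1 and Lmod1 most, near 1 FPKM.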

Other observations

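Of the genes associated with a modulated, matrix-producing state of smooth muscle, several of them also made by fibroblasts and macrophages, some were higher in the Egln1Tie2Cre pool and most passed no threshold. Of 10 kept, 4 were at least 1.5-fold higher than in Egln1 floxed, beside 9.46% of all genes kept, and 0 lower, beside 8.73%, with a median log2 ratio of 0.32. The count was 2 with a pseudocount of 5 and also at a mean of at least 5 FPKM, where the median was 0.19. Eln, which encodes elastin, had 32.99 FPKM in Egln1Tie2Cre, 15.8 in the library labelled Egln1/Hif2aTie2Cre and 11.5 in Egln1 floxed. Mgp, the matrix Gla protein that inhibits calcification, had 512, 263 and 230.3 FPKM in the same order, and Thbs1, thrombospondin 1, had 3.04, 2.48 and 1.19 FPKM. Lgals3, galectin-3, had 4.27, 3.43 and 1.46 FPKM. The other 6 were under 1.5-fold: Vcam1, Vim and Ly6a had log2 ratios of 0.38, 0.26 and 0.12, and Fn1, Col8a1 and Lum of -0.21, -0.35 and -0.44. In the library labelled Egln1/Hif2aTie2Cre 2 of the 10, Lgals3 and Thbs1, were at least 1.5-fold higher than in Egln1 floxed, beside 4.42% of all genes kept, and 0 lower, beside 3.28%, with a median of 0.20. Both are low in level, and neither call was made with a pseudocount of 5 or at a mean of at least 5 FPKM. The summed FPKM of all 12 listed was 939, 709.7 and 599.8. In the Egln1Tie2Cre pool 5 of 13 fibroblast and myofibroblast markers kept were higher than in Egln1 floxed, beside 9.46% of all genes kept. There 0 were lower, beside 8.73%. Among the 5 were Postn (47.9, 24.1 and 22.5 FPKM) and Comp (10.04, 2.17 and 1.80 FPKM). These values come from single pools, and neither which cells made the transcripts nor the part of the fibroblast markers in these values was tested.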
